A study of Mus musculus with 8 samples.

Results

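The abundant long noncoding RNAs of the mouse cornea and limbus were taken as the rows of the deposited gene table whose gene name was Malat1, Neat1, Miat, Gas5, Snhg1, Snhg6 or Snhg8. All 7 were found among the 23420 rows that name a gene. RNA sequencing compared the corneal button, the central disc of the cornea, with the limbal rim, the surrounding ring that borders the sclera and holds the epithelial stem cells of the cornea. Both tissues came from wild-type C57BL/6J mice aged 8 weeks with no treatment, and the dissected pieces were pooled by tissue before RNA was extracted. The labels number 4 samples per tissue, but the deposited means are averages of 1 library of each tissue. There was therefore no spread between replicates, no difference has a replicate check, and each value describes these 2 libraries.

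Long noncoding RNAs are transcribed and often spliced like messenger RNAs but do not encode a protein. Malat1 and Neat1 are neighbouring genes whose RNAs stay in the nucleus, where Malat1 gathers at nuclear speckles, the stores of splicing factors, and the long form of Neat1 is the scaffold of paraspeckles. Miat is a nuclear RNA first known from the heart and from neurons and retina. Gas5, Snhg1, Snhg6 and Snhg8 are host genes of small nucleolar RNAs (snoRNAs), which are cut from their introns and guide the chemical modification of ribosomal RNA, while the spliced host RNA is in general unstable and, for Gas5, known to be destroyed by nonsense-mediated decay. Gas5 also begins with the run of pyrimidines (5′ TOP) that ribosomal protein mRNAs carry.

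In the GRCm38 build (GENCODE M21) the 7 genes lie on 4 chromosomes. Malat1 lies on chromosome 19 from 5795690 to 5802672 on the minus strand, and its main transcript is a single exon of 6983 bases. Neat1 lies on the same strand of chromosome 19 from 5824708 to 5845478, with a long single-exon form of 20771 bases and a short form of 3004 bases that shares its start. Snhg1 lies on chromosome 19 from 8723475 to 8726443 on the plus strand. Gas5 lies on chromosome 1 from 161034422 to 161038539 on the plus strand, and Snhg6 on chromosome 1 from 9941959 to 9944118 on the minus strand. Snhg8 lies on chromosome 3 from 123507552 to 123508404 and Miat on chromosome 5 from 112213228 to 112229395, both on the minus strand. The table gives 1 value per gene, so the long and short forms of Neat1 could not be separated.

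The mature ends of Malat1 and long Neat1 are shown first, because neither RNA is protected by an ordinary poly(A) tail and both end in a triple helix that is formed by U-rich stretches and an A-rich tract. The stretches below run 5′ to 3′ in GENCODE's DNA letters and stop at the end of the A-rich tract. Capitals mark the 3 runs of at least 8 bases that both share in the same order.
Malat1: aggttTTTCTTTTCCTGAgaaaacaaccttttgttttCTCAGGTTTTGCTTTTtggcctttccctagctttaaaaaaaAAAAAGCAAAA
Neat1: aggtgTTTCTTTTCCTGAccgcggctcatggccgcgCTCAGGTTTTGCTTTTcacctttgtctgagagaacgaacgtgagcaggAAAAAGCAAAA
The Malat1 stretch spans 5795982 to 5796070 and ends 292 bases before the annotated end of the transcript, and the Neat1 stretch spans 5824708 to 5824802 and is the annotated end itself. The shared runs are 13, 16 and 11 bases long. The last of them was found in transcripts of 376 of the 55341 annotated genes (0.679%), and all 3 in order within 200 bases were found in 2 genes, Malat1 and Neat1. In both, what follows in the genome is a small tRNA-like RNA, at which RNase P makes the cut that sets the mature end.

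The starts of the members are shown because of the pyrimidine run with which Gas5 begins. RefSeq start windows (GRCm38.p6) were matched for 5 of the 7 members, with a pair of starts for Gas5, while Snhg6 and Neat1 had none. The lines below give the bases from 45 before to 15 after the start, 5′ to 3′. Capitals mark a TATA between 45 and 15 bases before the start, and the longest run of at least 6 C or T letters within 15 bases of the start.
Gas5: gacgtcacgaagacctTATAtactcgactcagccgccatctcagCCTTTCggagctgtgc
Snhg1: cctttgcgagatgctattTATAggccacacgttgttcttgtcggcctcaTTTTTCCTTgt
Snhg8: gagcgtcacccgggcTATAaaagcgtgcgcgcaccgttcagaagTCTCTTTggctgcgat
Malat1: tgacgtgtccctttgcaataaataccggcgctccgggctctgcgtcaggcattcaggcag
Miat: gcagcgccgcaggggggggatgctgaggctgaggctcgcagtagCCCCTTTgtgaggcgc
The Gas5 start shown is base 161035166 of chromosome 1, and its other start, at base 161034601, has neither feature. All 3 snoRNA hosts with a window held both a TATA, 27 to 30 bases before the start, and a pyrimidine run of 6 to 9 bases. Of all 32851 start windows, 6.72% held the TATA, 29.2% the run and 2.11% both, and of the 76 windows of ribosomal protein genes, 52.6% held the run and 9.21% the TATA. Of 15 other snoRNA host genes with a window, 3 held the TATA and 8 the run. Both searches read the strand of the gene only, were set with these sequences in view, and describe letters, not sites of action.

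The table gives no reads, so those of the 2 libraries were worked back from the steps of its mean normalized signal, with the authors' fold change and its error deciding how most means were split between the tissues. The ratios below are therefore not independent of the authors' own comparison. On named genes there were 26104535 corneal and 21181821 limbal reads. Ratios are limbus over cornea after division by size factors of 1.03 and 0.967, on the log2 scale, with a 95% interval (CI) from the limbal share by the exact Clopper-Pearson method. These intervals cover counting error only, since there was 1 library of each tissue. PCR copies of 1 molecule could not be told apart without molecular identifiers, so the intervals may be too narrow even for counting. A gene is called higher or lower where its interval leaves out 0, and ratios were taken for the 13861 genes that exceeded 3 reads in each library, whose median log2 ratio was -0.05. Of these, 33.2% stood higher and 40.6% lower in the limbus beyond counting error, and 14.7% were at least 2-fold higher and 8.66% at least 2-fold lower. Scaling to the total reads raises each log2 ratio by 0.21. It turns the split of 4596 higher and 5628 lower genes into 6251 and 4122, with a median of 0.15.

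The labels were checked against marker genes. The corneal keratin Krt12 had 1137735 corneal and 233324 limbal reads, and the limbal keratin Krt15 had 37738 and 353826. Of 13 marker lists, 11 took a larger share of the limbal reads, the exceptions being corneal epithelium and keratocytes. Of the 700158 corneal and 318030 limbal reads of the keratocyte list, 634936 and 255152 were those of Aldh3a1. That gene is also in the corneal epithelium list. By gene, 3 of 8 keratocyte markers were higher in the limbus, 4 were lower and 1 was within counting error. Of 8 corneal epithelium markers, 6 were lower in the limbus and 2, Clu and Krt76, were higher. In CPM (counts scaled to the total on named genes), markers of skeletal muscle went from 3.72 in the cornea to 545.4 in the limbus, of blood vessels from 9.96 to 228.0, of photoreceptors and retina from 28.0 to 306.9 and of neurons from 4.02 to 26.8. The limbal rim thus held reads of cell types that the corneal button held at lower levels, and their part in the differences below was not tested. In bulk tissue, fewer cells of a type and less RNA per cell cannot be told apart.

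Of the 7 long noncoding RNAs, 6 had more than 3 reads in both libraries. Neat1, Gas5 and Snhg8 were higher in the limbus, Malat1 and Snhg6 were lower, and Snhg1 did not differ beyond counting error. Only Malat1 was past 2-fold, among these 6. That is 3 higher and 2 lower of 6 against 33.2% and 40.6% of all genes. Among the 318 genes of long noncoding type in the annotation that passed the same minimum, 20.1% were higher and 21.4% lower beyond counting error, 10.7% at least 2-fold higher and 10.1% at least 2-fold lower, with a median of 0.04.

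**Figure D1:**
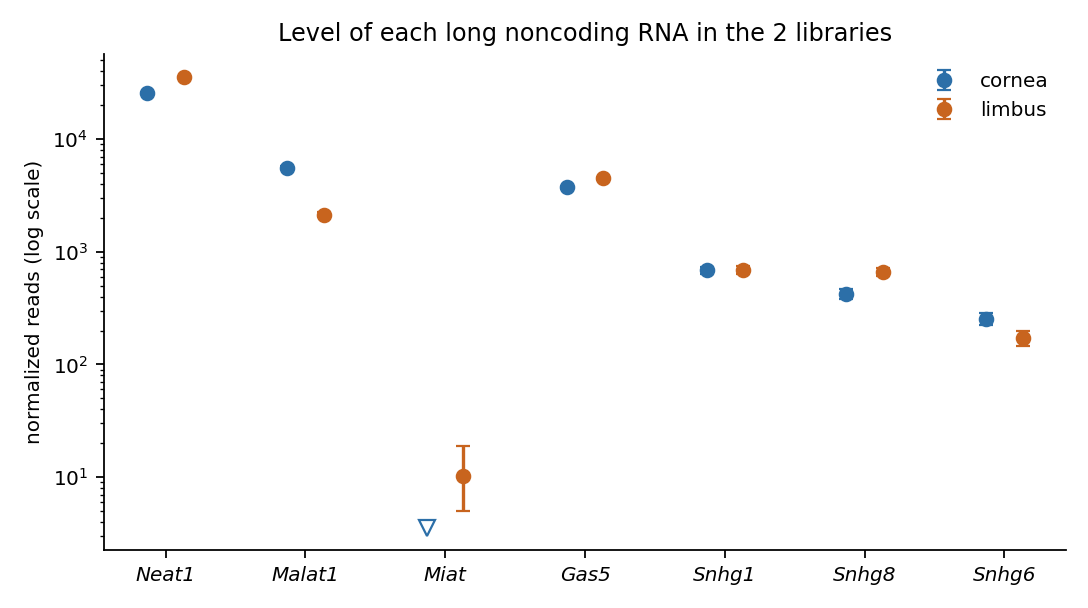
Normalized reads (log scale) of the 7 long noncoding RNAs in the cornea and limbus libraries, 1 point per library, with exact Poisson 95% intervals that are mostly smaller than the points. Miat had no read in the cornea, and the open triangle marks the upper end of the interval for a count of 0. Neat1 stands highest in both libraries, and Malat1 and Snhg6 are the members that lie lower in the limbus.

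Malat1, the speckle RNA, had 5773 corneal and 2073 limbal reads. After normalization this was 5585 against 2143, so the limbus held the lower value by a wide margin. The log2 ratio was -1.38 (CI -1.45 to -1.31), a level 2.61-fold higher in the cornea. Only 3.91% of all genes measured in both libraries had a lower ratio. Malat1 ranked 643rd by reads among the named genes of the cornea and 1839th in the limbus.

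Neat1, the paraspeckle RNA, moved the other way. It had 26821 corneal and 34365 limbal reads, or 25945 and 35525 after normalization. The log2 ratio was 0.45 (CI 0.43 to 0.48), which is 1.37-fold higher in the limbus. Of all genes measured in both libraries, 74.9% had a lower ratio. Neat1 was the 88th gene by reads in the cornea and the 50th in the limbus, and it made up 70.8% of the reads of the 7 members in the cornea and 81.3% in the limbus.

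The balance of these neighbours does not depend on how the libraries are scaled. In the cornea there were 4.65 Neat1 reads for each Malat1 read (CI 4.52 to 4.78), and in the limbus 16.6 (CI 15.9 to 17.3). The intervals are far apart, and the ratio was 3.57-fold higher in the limbus. Neat1 was 82.3% of the sum of both in the corneal library and 94.3% in the limbal one. For Neat1, 3 pairs of read numbers met the deposited error of the fold change within the limit set for the recovery. The pair used came 37.4 times closer than the next, which would put Neat1 still higher in the limbus. The ratio from the remaining pair is not reported here.

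Levels of different genes were compared only per length, as normalized reads per kilobase of exonic sequence. Neat1 stood at 1249.1 in the cornea and 1710.3 in the limbus over its 20.8 kilobases, an average that understates the short form, which covers only the start of the gene. Malat1 stood at 799.7 and 306.9 over 6.98 kilobases. Among 672 genes of long noncoding type with reads, Neat1 was the 3rd highest per kilobase in the cornea and the 2nd in the limbus, and Malat1 the 6th and the 11th. The order of the members per kilobase was Neat1, Gas5, Malat1, Snhg8, Snhg1, Snhg6, Miat in the cornea, and Neat1, Gas5, Snhg8, Malat1, Snhg1, Snhg6, Miat in the limbus. In the cornea Snhg1 at 231.7 (95% Poisson interval 214.9 to 249.3) and Snhg6 at 222.0 (196.0 to 250.5) did not differ beyond counting error, and the other neighbours in either order had intervals that do not overlap. These lengths join the exons of all annotated transcripts, with introns that some retain, so the order depends on that choice. Snhg1 was taken over 2969 bases, while a spliced transcript of it has 605, and Snhg8 over 853, while a spliced one has 448. The intervals do not cover this choice.

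Gas5 is the most abundant of the snoRNA hosts. It had 3867 corneal and 4370 limbal reads, and 3741 and 4517 after normalization. The log2 ratio was 0.27 (CI 0.21 to 0.33), or 1.21-fold higher in the limbus. Per kilobase it stood at 994.9 and 1201.5 over an exonic length of 3.76 kilobases, most of it intron sequence that some annotated transcripts retain, so the level of the short spliced RNA is understated.

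Snhg8 had the highest log2 ratio of the 6 members with one, with 436 corneal and 643 limbal reads. After normalization these were 422 and 665, a log2 ratio of 0.66 (CI 0.48 to 0.83) and a 1.58-fold higher level in the limbus. Snhg8 hosts Snora24, and its exonic length of 853 bases is the shortest of the members. Its counting interval lay above that of Gas5.

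Snhg6, the host of Snord87, went the opposite way. It had 263 corneal and 166 limbal reads, or 254 and 172 after normalization. The log2 ratio was -0.57 (CI -0.86 to -0.28), so the cornea was 1.48-fold higher. Per kilobase it stood at 222.0 in the cornea and 149.7 in the limbus. Reads of Snhg8 per read of Snhg6 were 1.66 (CI 1.42 to 1.94) in the cornea and 3.87 (CI 3.26 to 4.62) in the limbus, so the balance of these hosts differed by 2.34-fold between the libraries whatever the scaling.

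Snhg1, which hosts a row of box C/D snoRNAs, had 711 corneal and 668 limbal reads. Normalized, these were 688 and 691, and the libraries held nearly the same value. The log2 ratio was 0.01 (CI -0.15 to 0.16), so the value lay within counting error of no difference. Scaled to the total reads, the ratio was 0.21 (CI 0.06 to 0.37) and Snhg1 would be called higher in the limbus, while the other 5 members kept their side of 0.

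Summed, the 4 snoRNA hosts had 5277 corneal and 5847 limbal reads, a log2 ratio of 0.24 (CI 0.19 to 0.30) that rests mostly on Gas5. Gas5 to Snhg1 stood at 5.44 reads to 1 in the cornea (CI 5.02 to 5.90) and 6.54 in the limbus (CI 6.03 to 7.11). Reads of Snhg8 per read of Snhg1 were 0.613 (CI 0.543 to 0.692) and 0.963 (CI 0.862 to 1.07). The host RNAs thus did not keep 1 ratio to each other in both libraries.

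Miat was at the edge of detection. No read was found in the cornea, where a count of 0 allows up to 3.69 reads by the exact Poisson interval, and 10 reads were found in the limbus (95% interval 4.80 to 18.4). With the cornea set to 3 reads, the lower end of the interval of the log2 ratio was -0.12, so no fold is given. By these levels Malat1, Neat1 and Gas5 were abundant and Miat was not, in either tissue. Of the 12 neuronal markers, 4 exceeded 3 reads in both libraries, 6 only in the limbus and 2 in neither. In sum they had 105 corneal and 567 limbal reads, and the 12 photoreceptor and retina markers had 731 and 6501. The part of neural or retinal cells in the 10 Miat reads was not tested.

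**Figure D2:**
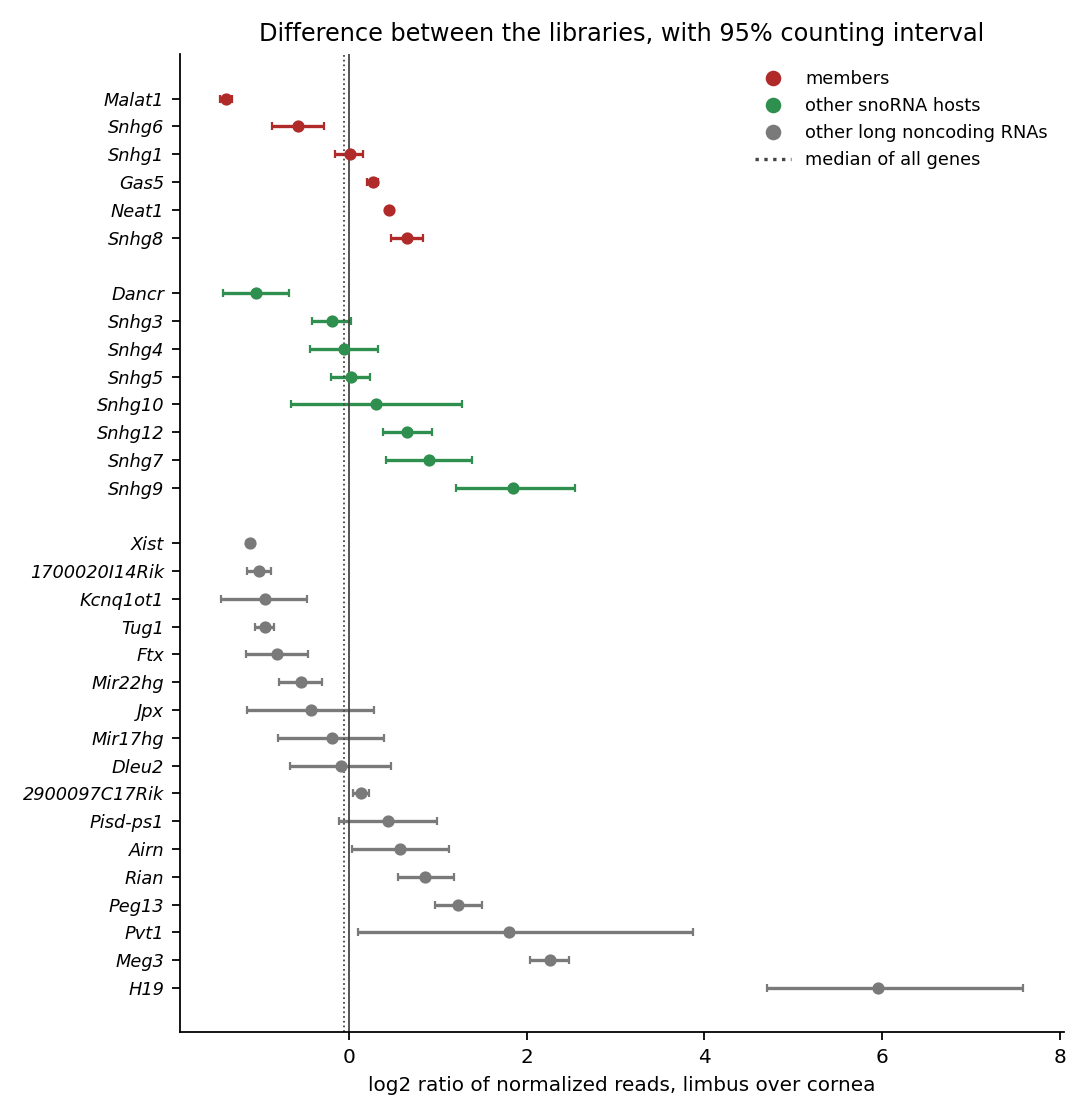
Log2 ratio of normalized reads, limbus over cornea, for the 6 members with more than 3 reads in both libraries and for the other snoRNA hosts and long noncoding RNAs of 2 lists, with 95% counting intervals. Members run from Malat1 at -1.38 to Snhg8 at 0.66, and the other RNAs from Xist at -1.11 to H19 at 5.95.

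Other noncoding relatives were read from gene lists that were chosen with earlier results of these data known. Of 17 other snoRNA hosts, 9 had a row and 8 exceeded 3 reads in each library. Of these, 3 were higher in the limbus, 1 was lower, and 4 had intervals that span 0, and the median log2 ratio was 0.16. Snhg9 was the highest, with 26 corneal and 88 limbal reads (1.85, CI 1.21 to 2.55). Dancr was the lowest, with 193 and 88 reads (-1.04, CI -1.42 to -0.67). Snhg5 had the most reads, 355 and 337 (0.02, CI -0.20 to 0.24). The snoRNA hosts of these lists stood on both sides of 0, as the 4 members did. So did all genes, of which 33.2% were higher and 40.6% lower.

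Of 17 other long noncoding RNAs above that minimum, 7 were higher in the limbus and 6 lower. Of all genes, 33.2% were higher and 40.6% lower. The median of the list was -0.09, which becomes 0.12 when scaled to total reads, against -0.05 and 0.15 over all genes. Xist, the RNA that coats the inactive X chromosome, had 23270 corneal and 10056 limbal reads (-1.11, CI -1.15 to -1.08), and the sex of the pooled mice is not stated in the labels. H19, an imprinted RNA, had 5 and 290 reads (5.95, CI 4.71 to 7.59). By distance of log2 ratio, Xist was the RNA of these lists nearest to Malat1, with Dancr next. Snhg12, with 176 and 260 reads, was the nearest to Snhg8 at the same ratio of 0.66. Snhg5 was the nearest to Snhg1, Mir22hg (-0.54) to Snhg6, Snhg10 (0.31) to Gas5, and Pisd-ps1 (0.44) to Neat1. The second nearest were Airn (0.58) for both Neat1 and Snhg8, 2900097C17Rik (0.14) for Gas5, Snhg4 (-0.05) for Snhg1 and Jpx (-0.42) for Snhg6. Likeness was taken over these 2 libraries and 25 candidate RNAs, and many pairs would be near by their number alone.

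The snoRNAs inside the hosts gave few reads. The annotation places 20 snoRNA entries inside the 4 host members, of which 5 had a row in the table. The 3 with reads are shown because they could be set against their hosts. Capitals mark box C (TGATGA) and the last box D (CTGA), the motifs by which C/D snoRNAs bind their proteins.
Snord47: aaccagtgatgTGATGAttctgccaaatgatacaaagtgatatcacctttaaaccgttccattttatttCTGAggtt
Snord22: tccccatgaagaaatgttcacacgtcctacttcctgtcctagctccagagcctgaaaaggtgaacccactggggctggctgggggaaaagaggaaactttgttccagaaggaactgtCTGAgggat
Snord87: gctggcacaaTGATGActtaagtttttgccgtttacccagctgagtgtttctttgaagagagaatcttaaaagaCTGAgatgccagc
Exact box C letters were found in Snord47 and Snord87 and not in Snord22, and in 75.8% of the 99 annotated Snord transcripts searched. CTGA within the last 15 bases was found in 92.9% of them.

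Snord47, at 161038082 to 161038158 of chromosome 1 inside Gas5, had 32 corneal reads and 0 limbal reads. With the limbus set to 3 reads, the cornea was at least 3.12-fold higher, although the host Gas5 was higher in the limbus. Snord22, at 8725866 to 8725991 of chromosome 19 inside Snhg1, had 97 corneal and 39 limbal reads, a log2 ratio of -1.22 (CI -1.79 to -0.67), while its host did not differ. Per 100 reads of the host this was 13.6 and 5.84. Snord87, inside an intron of Snhg6, had 6 reads and 1 read, and Snora24 and the Gas5 snoRNA entry named Mir5117 were listed at 0. Over all 80 symbols of snoRNAs with reads, there were 907 corneal and 528 limbal reads (log2 ratio -0.68, CI -0.84 to -0.53), a sum that includes Snord47 and Snord22. Of the 27 with more than 3 reads in each library, 3 were lower in the limbus and 1 was higher beyond counting error, with a median of -0.31. Whether reads over a snoRNA were also counted for the host is not given in the sources used here.

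**Figure D3:**
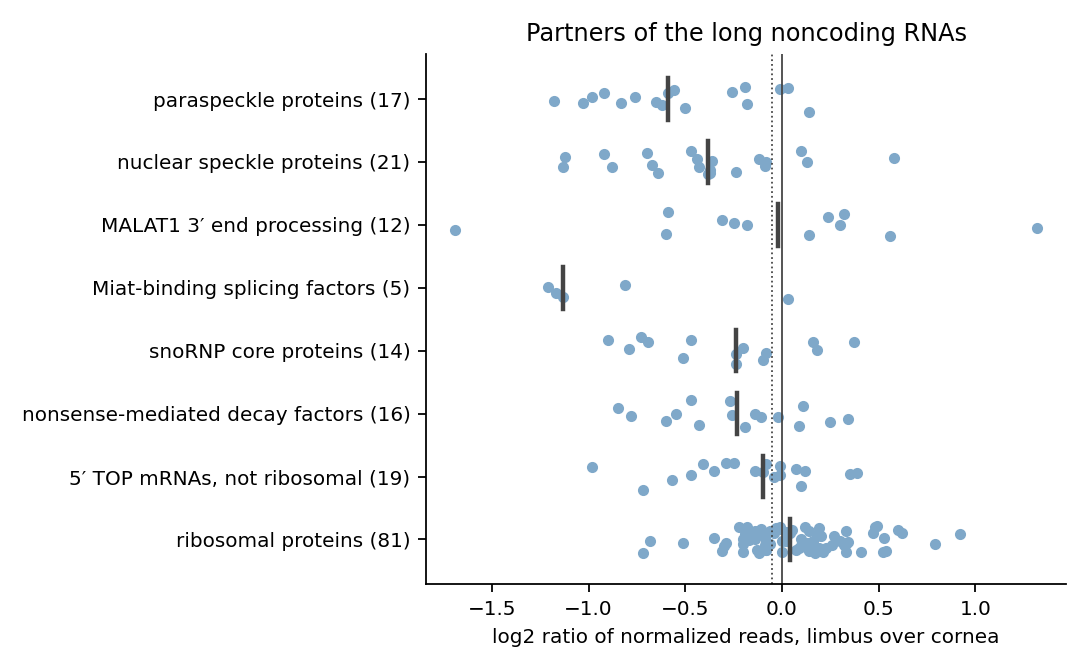
Log2 ratio of normalized reads, limbus over cornea, of genes whose products act with the long noncoding RNAs, 1 point per gene above 3 reads in each library. Thick bars are list medians, the dotted line is the median of all genes, and the number of genes is in parentheses. Paraspeckle and speckle protein genes lie mostly to the left of 0.

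Genes of the proteins that build paraspeckles on Neat1 were mostly lower in the limbus, the tissue in which Neat1 was higher. Of 17 such genes, 14 were lower, 1 was higher and 2 did not differ. Of all genes, those with few reads included, 40.6% were lower and 33.2% higher. The median of the list was -0.59 against -0.05 over all genes. Matr3, a nuclear matrix protein, was the lowest, with 5131 corneal and 2113 limbal reads (-1.18, CI -1.26 to -1.11). Smarca4, the motor subunit of a chromatin remodeller, was the only one higher, with 3140 and 3248 reads (0.14, CI 0.07 to 0.22). Hnrnpk, an RNA-binding protein that shapes the choice of Neat1 form, had the most reads, 11639 and 7396 (-0.56, CI -0.60 to -0.52). The core proteins Nono and Sfpq, named for their role after their values were seen, stood at -0.26 (CI -0.32 to -0.20) and -0.59 (CI -0.65 to -0.54). Scaled to total reads, 11 were lower and 3 higher, with a median of -0.39 against 0.15 over all genes.

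Genes of nuclear speckle proteins, at which Malat1 gathers, were lower in the limbus for 18 of 21 and higher for 3. Of all genes, 40.6% were lower and 33.2% higher. The median of the list was -0.38. Srsf1, a splicing factor known to bind Malat1, was the lowest with 7143 and 3059 reads (-1.13, CI -1.19 to -1.07). Srsf4, of the same family, was the highest with 883 and 1232 (0.58, CI 0.45 to 0.70). Sf3b1, a subunit of the splicing machinery, had the most reads with 8769 and 4447 (-0.88, CI -0.94 to -0.83). Scaled to total reads, 14 were lower and 5 higher, with a median of -0.18 against 0.15 over all genes.

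The subunits of RNase P, which cuts the ends of Malat1 and Neat1, were listed with the tRNase Z Elac2 and with Mettl16. Mettl16 binds the Malat1 triple helix. Of these 12 genes, 5 were lower in the limbus, 4 were higher and 3 did not differ, with a median of -0.02. Scaled to total reads, 3 were lower and 6 higher, with a median of 0.18 against 0.15 over all genes. Rpp40 was the lowest, with 262 and 76 reads (-1.69, CI -2.08 to -1.32). Rpp25 had the highest ratio at 1.32, on 6 and 14 reads and with an interval that spans 0 (CI -0.15 to 2.98). Pop4 had the most reads, 1113 and 1285 (0.30, CI 0.19 to 0.42). The RNA of RNase P itself, Rpph1, named after its value was seen, had 421 corneal and 34 limbal reads (-3.53, CI -4.08 to -3.03).

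The splicing factors known to bind Miat were 5 genes, of which 4 were lower in the limbus. Of all genes, 40.6% were lower. The median of the list was -1.13. Celf3 was the lowest with 47 and 19 reads (-1.21, CI -2.06 to -0.41), Sf1 the highest with 3305 and 3153 reads (0.03, CI -0.04 to 0.10), and the most reads were those of Srsf1, which is also in the speckle list.

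For the snoRNA hosts, the core proteins of snoRNA particles gave 9 lower, 3 higher and 2 within counting error of 14 genes. The median of this list was -0.24. Of all genes, 40.6% were lower and 33.2% higher. Naf1, an assembly factor, was the lowest (314 and 157 reads, -0.90, CI -1.19 to -0.62), Nhp2 the highest (1292 and 1566 reads, 0.37, CI 0.27 to 0.48), and Nop58 had the most reads (2546 and 1672, -0.51, CI -0.60 to -0.42). Nonsense-mediated decay factors gave 11 lower and 2 higher of 16, against 40.6% and 33.2% of all genes, with a median of -0.23. Magoh was the lowest (1941 and 1005 reads, -0.85, CI -0.97 to -0.74), Smg9 the highest (398 and 470 reads, 0.34, CI 0.14 to 0.53), and Eif4a3 had the most reads (2689 and 2099, -0.26, CI -0.34 to -0.18). Scaled to total reads, the snoRNA particle list had 6 lower and 4 higher with a median of -0.03. The decay factors then had 6 lower and 5 higher with a median of -0.02. Over all genes the median under this scaling was 0.15, so both lists stayed below it.

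Ribosomal protein genes and other mRNAs listed as 5′ TOP were set beside Gas5, and both groups were split. The ribosomal protein genes were taken by symbol and not by their start, and 52.6% of their 76 windows held the pyrimidine run. Of 81 of them, 38 were higher in the limbus and 32 lower, with a median of 0.04, and none was past 2-fold. Of all genes, 33.2% were higher and 40.6% lower. Rplp0 had the most reads, 56769 and 52973, Rpl39l the highest ratio at 0.92 (CI 0.49 to 1.35) and Rpl22l1 the lowest at -0.72 (CI -0.80 to -0.64). Scaling to total reads turned the split into 65 higher and 7 lower. Of 19 other 5′ TOP mRNAs, 5 were higher and 11 lower, with a median of -0.10, and scaling to total reads turned this into 11 higher and 7 lower. Eif3e was the lowest (-0.98, CI -1.03 to -0.92), and the elongation factor Eef1a1 had the most reads, 154148 and 113443 (-0.35, CI -0.36 to -0.34). Gas5, at 0.27, lay within the range of the ribosomal protein genes.

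**Figure D4:**
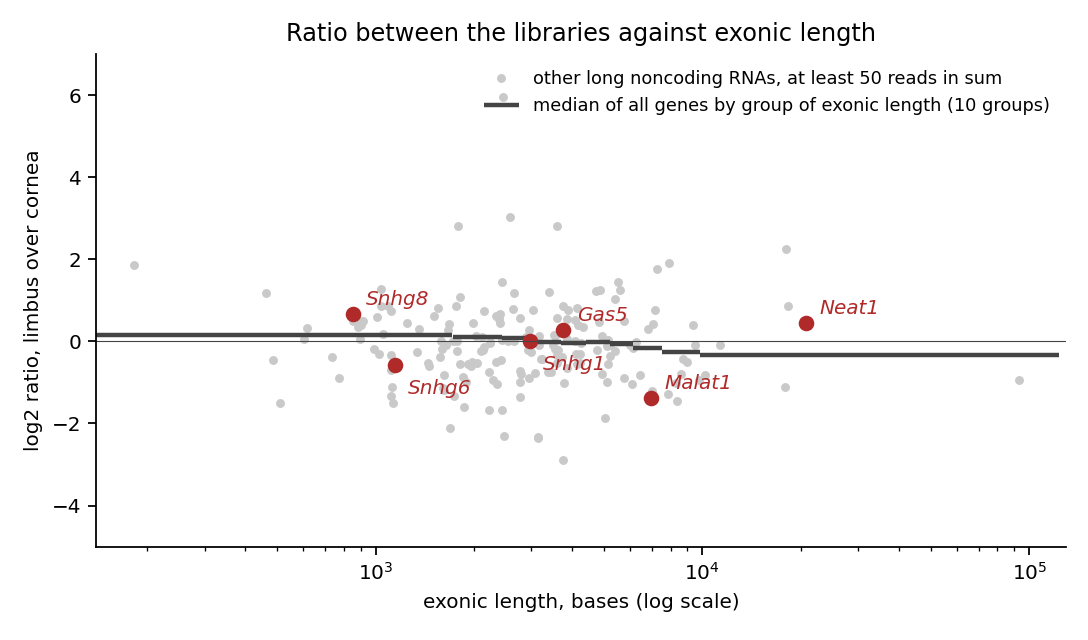
Log2 ratio, limbus over cornea, against exonic length in bases (log scale). Red points are the 6 members, grey points other long noncoding RNAs with at least 50 reads in sum, and black lines the median of all genes in each of 10 groups of exonic length. The medians fall from 0.16 for the shortest genes to -0.33 for the longest, and Neat1 lies above and Malat1 below its line.

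Ratios moved with exonic length over all genes, and members span nearly the whole range of lengths. The median log2 ratio was 0.16 among the 1303 genes of up to 1720 bases and -0.33 among the 1302 genes of 9813 bases or more. Neat1, in the longest group, lay 0.78 above the median of its group, and 80.4% of that group was lower. Malat1 lay 1.22 below the median of genes of 6138 to 7532 bases, which was -0.16, and 4.45% of that group was lower. Snhg6 and Snhg8 fall in the same group of shortest genes and lay on opposite sides of its median, Snhg8 0.50 above and Snhg6 0.73 below. Snhg1 and Gas5 lay within 0.30 of theirs. The part of length in these ratios was not tested.

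Other genes overlap some members. On the opposite strand, Zbtb37 shares 428 bases with Gas5 and had 57 and 31 reads, and Mcmdc2 shares 127 bases with Snhg6 and had 4 reads and 1 read. Gm26953 lies opposite 13935 bases of Miat and Gm37376 opposite 453 bases of Malat1, and neither had a row. The library kit keeps strand, but whether strand was used in counting is not given in the sources used here.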

How the data were processed

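Total RNA of pooled corneal buttons and limbal rims was sequenced from stranded libraries. Per the study's methods, the authors used CLC Genomics Workbench to trim adaptors and map to mm10 (GRCm38), and normalized with trimmed means of M-values. Their table was deposited by the authors with, per gene, a mean normalized signal over the libraries (reads divided by a size factor), a log2 fold change of cornea over limbus with its standard error, and p-values and adjusted p-values. The authors' fold changes and p-values are not reported here. The deposited log2 values and their errors were used to place the reads of each gene, so the ratios rest on them, and the deposited p-value columns were not used. A column of accession numbers that is not aligned with the gene rows was not used.

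Of 40904 rows, 17484 name no gene and stayed out, and 5978 named genes have a mean of 0. The other 17442 means are whole reads of 2 libraries, in which 109 cornea reads are worth 102 limbus reads (largest distance from a whole step 0.0101). The mean allows 1 pair of read numbers for 6143 genes. For the others, a dispersion was set for each possible pair from the deposited fold change, under a shrinkage model. The pair was then taken whose predicted error of the fold change came closest to the deposited error. The misfit is the distance between these errors, and the fold change itself was not a second check. The misfit was under 0.001 for 17411 genes (99.8%), and where 748 genes had several pairs within that limit, the dispersion of genes with like mean and ratio decided. With the size factors swapped, 35 genes met the limit. On simulated reads of 15806 genes for the same comparison, drawn under the same model, 100.0% of read pairs were found, with the right direction for all 200 genes given a known change. Read numbers are derived values, not a count table.

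Because no value per sample is given, no test across replicates was made, unlike what the design allowed for. Exonic lengths are from GENCODE M21, in which 92.9% of named rows were found, and long noncoding type was taken from GENCODE where RefSeq does not list a protein-coding gene. Ratios were recomputed after scaling to total reads, with a trimmed mean of M-values from the reads, after centring, with a pseudocount of 1 normalized read, with filters on a mean of 10 and 50 and with the second best pair of reads. The members and gene lists were chosen with earlier results of these data known. Genes named besides the 7 members are, per list, those with the highest and lowest ratio at a mean of at least 10 and with the most reads, the 2 nearest RNAs in ratio for each member, and snoRNAs inside members; 1 gene that this rule names is not reported here. Calculations used Python 3.11.15, numpy, pandas and scipy.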

Additional observations from a re-analysis of the deposited data

How the results depend on the processing

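No paired analysis was possible because no numbered sample has values of its own in the table, and for the same reason no replicate could be left out. Scaling to total reads moved the log2 ratios of Malat1 to -1.18, Neat1 to 0.66, Gas5 to 0.48, Snhg1 to 0.21 and Snhg8 to 0.86, with no change of direction. It also moved the medians of the 5′ TOP mRNAs to 0.11 and of the ribosomal protein genes to 0.25, and the number of genes at least 2-fold lower in the limbus from 1201 to 744. Centring on the median moved Neat1 to 0.51. A mean of at least 50 left 1343 genes at least 2-fold higher, 11.4% of those that passed it, in place of 2042 (14.7%). The second best pair of reads would give -7.82 for Malat1, 2.92 for Neat1, 1.60 for Gas5, 0.45 for Snhg1, -2.44 for Snhg6 and 3.22 for Snhg8, each with the same direction and a misfit at least 37.4 times larger. The other 74 recomputed values stayed within their counting interval, within the interval of the list's median or, for counts of genes, within 1.5 times. Depth limits Miat, and the intervals leave out differences between animals, dissections and library preparations.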

Other observations

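Some other noncoding RNAs were named after their values were seen. Emx2os, the antisense partner of the homeobox gene Emx2, had 893 corneal and 228 limbal reads (log2 ratio -1.87, CI -2.09 to -1.66). Meg3, an imprinted RNA, had 205 and 916 reads (2.26, CI 2.04 to 2.48), and Peg13, imprinted as well, had 177 and 389 (1.23, CI 0.97 to 1.50). Tug1, a nuclear RNA expressed in many tissues, had 2278 and 1110 reads (-0.94, CI -1.05 to -0.84), a direction shared with Malat1 and Xist. Six3os1, which lies beside the eye-field gene Six3, had 0 corneal and 28 limbal reads, and Rmst had 1 read and 23 reads. The direction of these RNAs is the same when scaled to total reads, which adds 0.21.

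A pair of structural RNA genes, also named after their values were seen, were lower in the limbus. The ribosomal RNA precursor Rn45s took 518274 corneal and 58995 limbal reads (-3.04, CI -3.05 to -3.03), which is 1.99% and 0.279% of the reads on named genes. Rmrp, the RNA of RNase MRP, had 122 and 23 reads (-2.31, CI -3.02 to -1.66). Their relation to the ratios of the long noncoding RNAs was not tested.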
